A study of Mus musculus with 24 samples.

Results

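The genes described here encode the pore-forming and auxiliary subunits of potassium, sodium and calcium channels. They were taken by name: every row of the array table with exactly 1 gene symbol that starts with Kcn, Scn or Cacn followed by a letter or digit, without the epithelial sodium channel genes Scnn1a, Scnn1b and Scnn1g. That gave 103 rows and, with the highest-mean row of each gene, 102 genes of the 14807 genes that had a single-symbol row. The rule uses no measured value other than that mean. RNA came from the right hippocampus of 24 BALB-c mice, each 10 days old. The right was the side used for carotid artery ligation. Every sample was run on its own Affymetrix Mouse Exon 1.0 ST array. The samples fall into 4 groups of 6: brain-injured with high-dose recombinant erythropoietin (injured EPO), sham-injured with it (sham EPO), brain-injured without it (injured none) and sham-injured without it (sham none). Erythropoietin is best known as the kidney hormone of red cell production. Neither the dose and timing of erythropoietin nor the day of injury is given in the sources used here, which name no genetic change in the mice. The groups follow the stated mouse status and treatment, but the titles can also be read so that sham EPO and injured none change places. Under that reading, what is called sham EPO against sham none would be injured none against sham none, and every direction below holds only for the groups as labelled.

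Voltage-gated sodium channels open first when a neuron is depolarised and carry the upstroke of the action potential, while voltage-gated potassium channels (Kv) repolarise the membrane and set how often it fires. Calcium channels turn that electrical signal into calcium entry at dendrites, soma and terminals, where it triggers transmitter release. Inward rectifier and two-pore-domain potassium channels hold the resting potential, and some of them mark glia, pericytes or muscle of vessel walls in place of neurons. In the hippocampus of a pup these genes are still changing with maturation, and pyramidal cells, interneurons and glia each use their own set.

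All values are log2 expression on the scale the authors deposited, so a difference of 1 is a doubling. The number of arrays limits the precision, and a difference between 2 groups carried a standard error (SE) of 0.14 in the median row. Array medians lay between 5.05 and 5.43, and any pair of arrays correlated between 0.952 and 0.993 over all rows. Neurons are the tissue's defining cells, and the lowest of the 4 group means of any of the 7 measured neuron markers was 8.09. Whole tissue was measured, so fewer cells of a type and less RNA per cell cannot be told apart. Members with a low signal are hard to read: 28 of the 102 channel genes had a mean under 5 over all arrays, against a lowest member mean of 2.81 for Kcnu1, a sperm potassium channel, and a highest of 9.96 for Kcnab2, a Kv beta subunit. Nothing in the labels says whether samples share a litter, so p-values measure the spread between these arrays.

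Channel genes were mostly lower on sham EPO arrays than on sham none arrays. The fit across all rows (limma, Benjamini-Hochberg adjustment, threshold 0.05) called 51 of the 102 members, 43 lower and 8 higher, which is 50.0% of the members against 19.1% of all 23238 rows. Over all rows, 7.6% were called lower and 11.5% higher, so the direction of the members was the opposite of that of the table as a whole. The median difference over the 102 members was -0.30, beside 0.03 over all rows, and single genes lay between -1.47 for Kcnq3 and 1.15 for Kcnj2. All 43 members called lower had a mean of 5 or more, and of the 28 dim members 5 were called higher. The 6 sham EPO arrays lay entirely below or above the 6 sham none arrays in 35 members, 30 below and 5 above, where 11.6% of all rows had such a gap. Centring each array on its own median moved the all-row median by more than 0.1, to -0.15, and then 56 members were called lower and 4 higher with a member median of -0.48. That was 58.8% of the members against 26.1% of all rows. Within the 11 arrays that share the title code 3D, the member median was -0.36 and 14 members were called, 12 lower and 2 higher, where 3.71% of all rows were called. Of the sham groups, these arrays hold only sham EPO replicates 3 and 4 and sham none replicates 2 and 3. The called members Kcna4, Kcnh3, Kcnk12, Kcnn1, Kcns1 and Kcns2, named for other comparisons, were not followed under the other settings here. Among the other called members described below, the difference moved by over 1.5 times within code 3D in Kcnv1 (-1.80), Scn2b (-0.96), Cacnb1 (-0.84), Kcna1 (-0.30), Kcnk1 (-0.11), Kcnk2 (-0.063), Kcnmb1 (0.14), Kcnn4 (0.25) and Kcne4. With the title code as a fixed block Cacna1c, Kcnk2, Kcnk5 and Kcnmb1 lost their calls, and with only the 2 groups in the fit Kcnj4, Kcnk5, Kcnmb1, Scn1a and Kcne4 did.

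**Figure D1:**
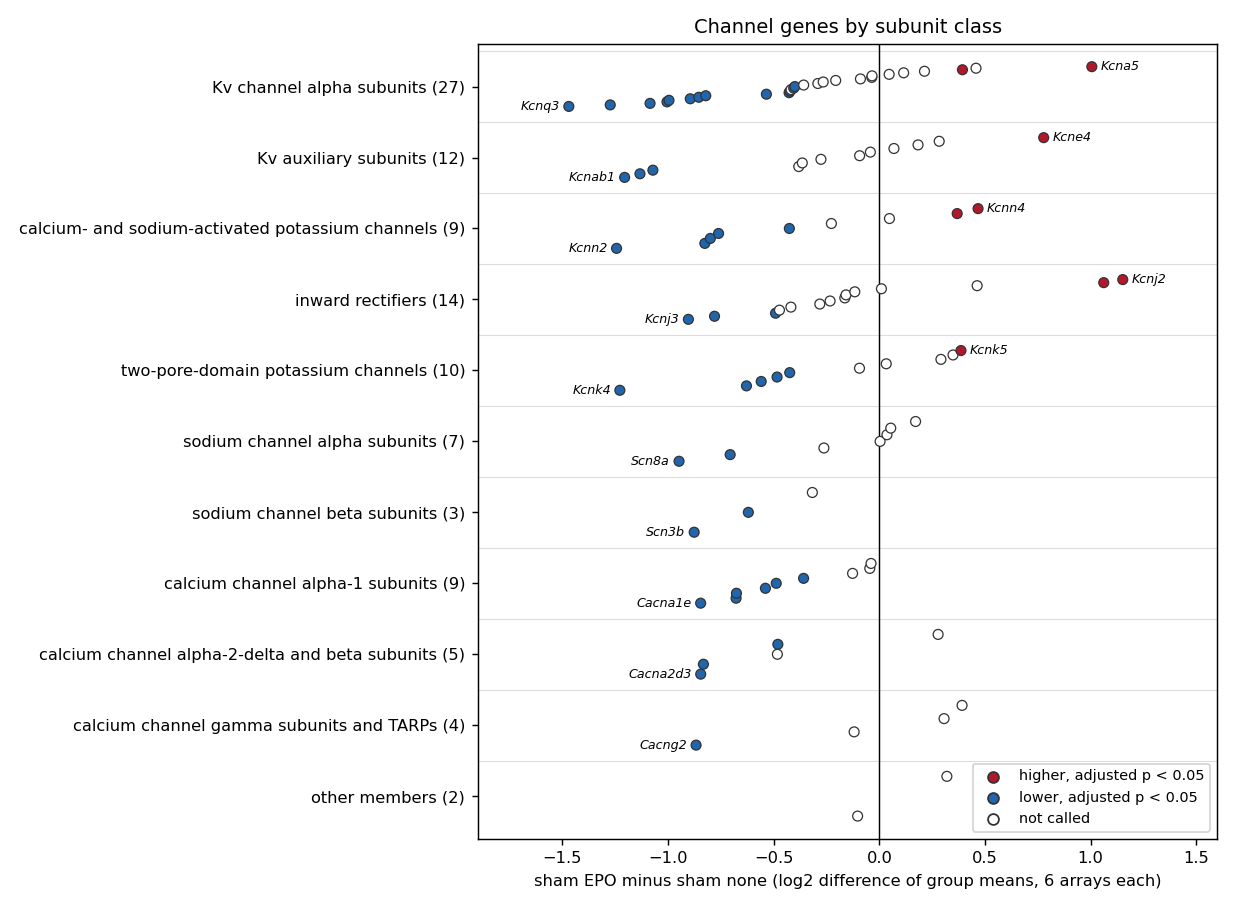
Difference of each channel gene between sham EPO and sham none arrays (log2, horizontal axis), grouped by subunit class with the number of genes in brackets; each point is 1 gene, filled when called at an adjusted p under 0.05, and the lowest called and highest called gene of a class is named where it is the class extreme. Calls to the left of 0 appear in every class except the 2 other members, and the 8 calls to the right sit in 5 potassium channel classes, with Kcnj2, Kcnj8 and Kcna5 above 1.

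Promoter letters are shown for 4 members called lower and 2 called higher, since these groups moved in opposite directions; they are the 250 bases before the annotated start, from RefSeq on GRCm38.p6, written 5′ to 3′ on the gene's strand. Of the 102 members, 79 matched the promoter table by Entrez identifier, with 109 windows. Kcng3 (chr17:83631896-83632145, minus strand), Kcnk4 (chr19:6934516-6934765, minus strand), Kcnip2 (chr19:45816064-45816313, minus strand) and 1 of the 3 Kcnab2 windows (chr4:152452946-152453195, minus strand) come from genes called lower. Kcnj2 (chr11:111065914-111066163, plus strand) and Kcnj8 (chr6:142571615-142571864, minus strand) come from genes called higher. Capitals mark a GC box, GGGCGG on either strand, the STAT pattern TTCNNNGAA, or CAGCACC, the left part of the RE1 element on which the neuronal repressor REST binds.
Kcng3: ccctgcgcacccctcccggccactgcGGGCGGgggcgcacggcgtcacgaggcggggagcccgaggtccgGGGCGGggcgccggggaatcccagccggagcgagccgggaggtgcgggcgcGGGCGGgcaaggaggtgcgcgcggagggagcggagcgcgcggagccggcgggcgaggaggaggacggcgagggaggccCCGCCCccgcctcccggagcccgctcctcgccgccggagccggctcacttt
Kcnk4: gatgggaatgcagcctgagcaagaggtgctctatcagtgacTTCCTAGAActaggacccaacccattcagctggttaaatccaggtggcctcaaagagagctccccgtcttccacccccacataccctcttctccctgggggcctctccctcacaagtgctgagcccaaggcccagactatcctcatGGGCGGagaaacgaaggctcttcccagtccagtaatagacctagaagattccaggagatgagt
Kcnip2: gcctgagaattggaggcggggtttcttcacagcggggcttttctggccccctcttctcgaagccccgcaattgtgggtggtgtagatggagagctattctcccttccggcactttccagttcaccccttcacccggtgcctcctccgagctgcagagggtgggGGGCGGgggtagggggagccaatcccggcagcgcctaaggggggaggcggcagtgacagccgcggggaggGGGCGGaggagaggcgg
Kcnab2: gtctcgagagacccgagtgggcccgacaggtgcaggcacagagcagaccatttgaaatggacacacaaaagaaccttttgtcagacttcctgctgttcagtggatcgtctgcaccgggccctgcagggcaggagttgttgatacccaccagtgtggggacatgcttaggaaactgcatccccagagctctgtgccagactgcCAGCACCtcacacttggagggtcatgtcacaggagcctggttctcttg
Kcnj2: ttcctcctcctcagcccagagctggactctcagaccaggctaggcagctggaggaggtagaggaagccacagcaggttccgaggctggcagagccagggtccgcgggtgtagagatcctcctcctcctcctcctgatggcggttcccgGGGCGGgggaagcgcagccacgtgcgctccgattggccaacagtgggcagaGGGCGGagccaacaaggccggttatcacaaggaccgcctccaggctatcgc
Kcnj8: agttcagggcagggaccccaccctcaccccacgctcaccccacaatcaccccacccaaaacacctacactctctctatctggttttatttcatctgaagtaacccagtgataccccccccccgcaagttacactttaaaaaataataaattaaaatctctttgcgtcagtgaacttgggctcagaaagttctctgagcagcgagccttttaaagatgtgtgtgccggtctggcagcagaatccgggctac
Kcng3 held 4 GC boxes, Kcnip2 and Kcnj2 2 each and Kcnk4 1 beside 1 STAT match, the Kcnab2 window shown held 1 RE1 left part, and Kcnj8 held none of the patterns. A GC box stood in 50.0% of the 48 windows of members called lower, in 42.9% of the 7 windows of members called higher, in 40.7% of the 54 windows of members not called and in 32.7% of all 32851 windows of the table. The STAT pattern stood in 10.4%, 0%, 9.26% and 7.02% of these sets, and CAGCACC in 4.17%, 0%, 1.85% and 5.73%. AP-1 (TGANTCA) stood in 2.08%, 0%, 7.41% and 6.75%, and the cyclic AMP element TGACGTCA in 0% of every member set and 1.55% of all windows. No 2 patterns overlapped in a member window. A match is only a run of letters, and no match says only that the letters are missing from this window.

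Among the 27 alpha subunits of Kv channels, which form the voltage-gated potassium pore, 13 were called lower and 2 higher in sham EPO, with a median difference of -0.40. Kcnq3 (row 6836305), a subunit of the M-current that restrains repetitive firing, gave the largest fall. It lay between 6.78 and 7.61 with a median of 7.20 on sham EPO arrays, and between 8.40 and 8.94 with a median of 8.69 on sham none arrays. The groups did not overlap, and Kcnq3 fell by 1.47 ± 0.14 (SE, n = 6 per group), or 2.77-fold, with an adjusted p of 9.03e-08 (limma). On injured arrays its median was 8.04 with EPO and 8.63 without it, so sham EPO held the lowest values of the 4 groups. Kcng3 (row 6857763) and Kcns2 (row 6829687) encode subunits that form no channel alone and modify others. Kcng3 spanned 4.51 to 5.68, median 5.54, in sham EPO and 6.20 to 6.96, median 6.65, in sham none, with a difference of -1.27 ± 0.20. Kcns2 spanned 5.05 to 5.94, median 5.54, in sham EPO and 6.17 to 6.94, median 6.51, in sham none, so that it fell by 1.00 ± 0.16. In both genes every sham EPO array lay below every sham none array. Kcnv1, another silent subunit, fell by 1.09 ± 0.28 with a wider spread, its sham EPO arrays lying between 5.72 and 7.92 and overlapping the sham none range of 7.66 to 8.16.

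Further Kv alpha genes were called lower in sham EPO, while 12 of the 27 were not called. Kcnd2 (row 6944514), which carries the dendritic A-type current of pyramidal cells, had sham EPO values of 8.50 to 9.39, median 8.81, against 9.41 to 9.98, median 9.84, in sham none. The difference was -0.89 ± 0.16, and the groups came close without overlapping. Kcnd3, another A-type pore, named after its value was seen, was not called (-0.03 ± 0.15), with means of 7.59 in sham EPO and 7.62 in sham none. Kcnh3, an ether-a-go-go family subunit of forebrain neurons, had a median of 7.37 in sham EPO and 8.45 in sham none, and fell by 1.00 ± 0.12. Kcnc1, of the channel that lets interneurons fire fast, fell by 0.85 ± 0.14, and Kcna4, an A-type subunit of axons, by 0.82 ± 0.14. For Kcnh3, Kcnc1 and Kcna4 the groups stood apart. Smaller falls of the axonal subunits Kcna1 (-0.53 ± 0.16) and Kcna2 (-0.40 ± 0.11) came with overlapping arrays. Kcns1 fell by 0.43 ± 0.11. Kcna3, used by T cells and microglia, and Kcnh2, known from the heart, were not called, with differences of 0.21 ± 0.15 and -0.09 ± 0.11.

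The 12 auxiliary subunits of Kv channels split into 3 called lower, 1 higher and 8 not called. The 3 that fell did so by more than 1 unit, and all are cytoplasmic partners of Kv channels in neurons. Kcnab2 (row 6927145), the beta subunit that helps carry Kv channels to the axon, lay between 8.73 and 9.44 with a median of 9.18 in sham EPO and between 9.82 and 10.47 with a median of 10.28 in sham none. It fell by 1.07 ± 0.12 (adjusted p = 9.5e-07, limma) with no overlap. Kcnab1 (row 6898063) lay between 7.67 and 8.86 with a median of 8.19 in sham EPO and between 9.07 and 10.06 with a median of 9.39 in sham none, a fall by 1.21 ± 0.20. Kcnip2 (row 6873368), a calcium-binding partner of the A-type channels, lay between 7.84 and 8.84 with a median of 8.41 in sham EPO and between 9.38 and 9.69 with a median of 9.51 in sham none, a fall by 1.13 ± 0.14. In all 3 the sham EPO arrays stayed below the sham none arrays. Kcne4, a single-pass subunit that dampens Kv currents, was the 1 called higher, by 0.78 ± 0.24. That call was lost without sham EPO replicate 3 or replicate 4, after centring and with only the 2 groups in the fit. The difference of Kcne4 lay between 0.54 and 0.92 over the fits that leave out 1 array, and was 1.66 within code 3D.

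Calcium-activated potassium channels, which end bursts and produce the after-hyperpolarisation, gave 5 lower and 2 higher among 9 genes. Kcnn2 (row 6860576), the small-conductance channel of pyramidal dendrites, lay between 7.33 and 8.46 with a median of 7.90 on sham EPO arrays and between 8.85 and 9.40 with a median of 9.09 on sham none arrays. It fell by 1.24 ± 0.15 (adjusted p = 2.07e-06, limma), and the groups stood apart. Kcnma1, the pore of the large-conductance channel, fell by 0.80 ± 0.13, and its brain-enriched beta subunit gene Kcnmb4 by 0.83 ± 0.15. Kcnn1, another small-conductance subunit, fell by 0.76 ± 0.14. These 3 genes also had no overlap between the groups. The sperm channel gene Kcnu1 was counted here only by the start of its symbol and was not called (0.05 ± 0.06). Of the 2 that rose, Kcnn4 (row 6959116), the intermediate-conductance channel of red cells, lymphocytes and microglia, lay between 4.77 and 5.21 with a median of 4.92 in sham EPO and between 4.29 and 4.61 with a median of 4.49 in sham none, a rise of 0.47 ± 0.09 that was 0.30 after centring. Kcnmb1, the smooth muscle beta subunit, rose by 0.37 ± 0.12, a call lost without sham none replicate 3, sham EPO replicate 1 or sham EPO replicate 2, and lost after centring or quantile normalization.

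Inward rectifiers moved in both directions, with 3 lower and 2 higher among 14. Kcnj3 (row 6877229) encodes the subunit shared by most neuronal G-protein-gated channels, which slow firing when GABA or adenosine receptors are active. It lay between 8.57 and 9.22 with a median of 8.89 in sham EPO and between 9.59 and 10.01 with a median of 9.80 in sham none, a fall by 0.90 ± 0.11 (adjusted p = 1.23e-06, limma). Its partner Kcnj6 fell by 0.78 ± 0.13, and neither gene overlapped between the groups. Kcnj4 was called at an adjusted p of 0.049 with a difference of -0.49 ± 0.17, a call lost in 18 of the 24 fits that leave out 1 array, where the difference lay between -0.59 and -0.36. Both rises were large. Kcnj8 (row 6958061), the pore of the ATP-sensitive channel of pericytes, lay between 6.64 and 7.13 with a median of 6.99 in sham EPO and between 5.58 and 6.30 with a median of 5.85 in sham none. It rose by 1.06 ± 0.13 (adjusted p = 1.32e-06, limma) without overlap. Kcnj2 (row 6784845), the strong inward rectifier of muscle, endothelium and macrophages, lay between 5.57 and 6.89 with a median of 6.43 in sham EPO and between 4.84 and 5.84 with a median of 5.06 in sham none, a rise of 1.15 ± 0.23 with some overlap. Kcnj10, the potassium-buffering channel of astrocytes, was not called (-0.23 ± 0.16). It lay between 8.22 and 9.59 on sham EPO arrays and between 8.98 and 9.24 on sham none arrays, so its spread was far wider in sham EPO. After centring, or without sham EPO replicate 4, Kcnj10 was called lower, and within code 3D its difference was 0.18.

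Two-pore-domain channels, which carry leak current, gave 5 lower and 1 higher among 10. Kcnk4 (row 6871264), a neuronal channel opened by stretch and arachidonic acid, fell most, lying between 6.08 and 6.89 with a median of 6.75 in sham EPO and between 7.68 and 7.98 with a median of 7.87 in sham none. The fall of 1.23 ± 0.14 (adjusted p = 1.04e-06, limma) was 2.34-fold and left a gap between the groups. The related Kcnk10 fell by 0.63 ± 0.15 and Kcnk12 by 0.48 ± 0.10, both without overlap, and Kcnk1, abundant in astrocytes and neurons, by 0.56 ± 0.11 with overlap. Kcnk2 was called at -0.42 ± 0.14. The call of Kcnk2 was lost without sham none replicate 2, 4 or 6 or sham EPO replicate 1, 5 or 6. Kcnk5, known from kidney, was called higher by 0.39 ± 0.12, and that call was lost without sham none replicate 2 or 6 or sham EPO replicate 1, 2 or 3, and after centring or quantile normalization. Kcnk13, a microglial leak channel, was not called (0.29 ± 0.11, adjusted p = 0.0697, limma), but was when sham EPO replicate 5 or injured EPO replicate 4 was left out.

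**Figure D2:**
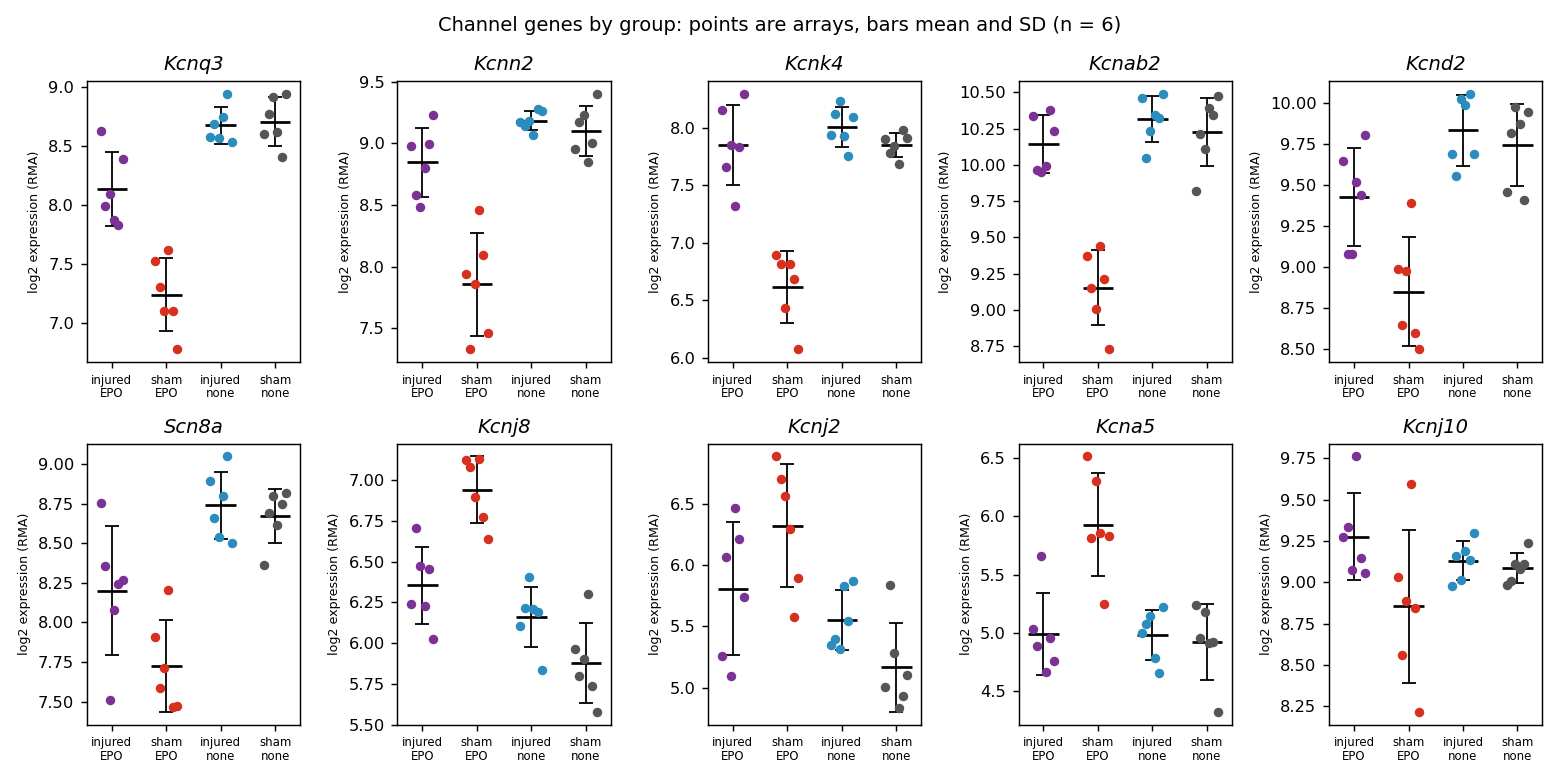
Log2 expression of 10 channel genes on every array (points), with the group mean and SD (bars, n = 6), for injured EPO, sham EPO, injured none and sham none from left to right in each panel; vertical axes differ between panels and do not start at 0. In Kcnq3, Kcnn2, Kcnk4 and Kcnab2 the sham EPO arrays sit below every array of the other 3 groups, in Kcnj8 all but 1 of them sit above every injured EPO array, and in Kcnj10 they only spread wider.

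Sodium channel genes gave 2 called lower and 0 higher among 7 alpha subunits, whose median difference was 0.0034, and 2 lower and 0 higher among 3 beta subunits. Scn8a (row 6833286), the channel of the mature axon initial segment, lay between 7.47 and 8.21 with a median of 7.65 in sham EPO and between 8.36 and 8.82 with a median of 8.72 in sham none. It fell by 0.95 ± 0.16 (adjusted p = 9.41e-05, limma), with no overlap. Scn1a, the main sodium channel of inhibitory interneurons, fell by 0.71 ± 0.22 with wide overlap, and the call was lost without sham none replicate 6, sham EPO replicate 3 or sham EPO replicate 6. Scn3a, the embryonic form, lay below every sham none array on all 6 sham EPO arrays, but its difference of -0.26 ± 0.11 was not called (adjusted p = 0.099, limma). Scn7a, a sodium sensor of glia, and the sensory neuron channels Scn9a, Scn10a and Scn11a, these 3 named after their values were seen, had sham EPO means of at most 3.35 and were not called. Among the beta subunits, which anchor the pore and shape its gating, Scn3b (row 6988366) lay between 9.03 and 9.66 with a median of 9.14 in sham EPO and between 9.95 and 10.36 with a median of 10.10 in sham none, a fall by 0.88 ± 0.12. Scn2b fell by 0.62 ± 0.17, and Scn4b was not called (-0.32 ± 0.16).

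Of the 9 alpha-1 subunits of calcium channels, the pores, 6 were called lower and 0 higher, and all 9 differences were below 0 with a median of -0.49. Cacna1e (row 6763196), of the R-type current in dendritic spines, lay between 7.75 and 8.49 with a median of 8.06 in sham EPO and between 8.57 and 9.10 with a median of 8.97 in sham none, a fall by 0.85 ± 0.16. Cacna1b, of the N-type current at terminals, lay between 7.47 and 7.80 in sham EPO and between 8.11 and 8.61 in sham none, a fall by 0.68 ± 0.10. Cacna1h, a low-voltage T-type gene, lay between 6.92 and 7.30 in sham EPO and between 7.45 and 8.10 in sham none, a fall by 0.68 ± 0.10. None of these 3 overlapped. Cacna1g, also T-type, fell by 0.54 ± 0.11, and Cacna1a, of the P/Q-type current that drives release at most central synapses, fell by 0.49 ± 0.12, both with overlap. For the L-type genes the differences were smaller. Cacna1c was called at an adjusted p of 0.0479 (limma) with -0.36 ± 0.13, and the call was lost in 16 of the 24 fits that leave out 1 array, where the difference lay between -0.40 and -0.30. Cacna1d differed by -0.13 ± 0.14 and was not called. The remaining 2, muscle and retinal forms, had group means of at most 3.34.

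Auxiliary subunits of calcium channels gave 3 lower among 5 alpha-2-delta and beta genes and 1 lower among 4 gamma genes, with 0 higher. Cacna2d3 (row 6823635), which helps bring calcium channels to the terminal, lay between 8.30 and 8.83 with a median of 8.49 in sham EPO and between 8.92 and 9.58 with a median of 9.44 in sham none, a fall by 0.85 ± 0.12. Cacnb2, a cytoplasmic beta subunit, fell by 0.83 ± 0.13, and these 2 genes had no overlap. Cacnb1 fell by 0.48 ± 0.12. Cacnb4 showed nearly the same difference, -0.48 ± 0.19, with more spread, and missed the threshold at an adjusted p of 0.0878 (limma); it passed after centring or quantile normalization and without sham none replicate 1 or sham EPO replicate 1 or 4. Cacng2 (row 6836991), stargazin, serves AMPA receptors more than calcium channels, and carries them to the synapse. It lay between 8.11 and 9.18 with a median of 8.53 in sham EPO and between 9.19 and 9.67 with a median of 9.47 in sham none, a fall by 0.87 ± 0.16. The astrocyte-enriched Cacng5 was not called (0.31 ± 0.12).

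The 8 members called higher in sham EPO are, as background, ones known chiefly from vessel walls, blood cells, microglia, heart or epithelia. Kcna5 (row 6957240), a subunit of vascular muscle and heart that microglia can use too, lay between 5.24 and 6.51 with a median of 5.84 in sham EPO and between 4.32 and 5.24 with a median of 4.94 in sham none, and rose by 1.01 ± 0.19 (adjusted p = 0.000345, limma). Kcnq1, of heart and epithelia, rose by 0.39 ± 0.08, a call lost after centring or quantile normalization. Of these 8, 5 had a mean under 5 over all arrays. Markers of other cells moved with them. Among 6 endothelium and pericyte markers 4 were called higher and 0 lower, and their array means lay between 7.89 and 8.33 in sham EPO and between 6.65 and 7.30 in sham none. Among 5 measured leukocyte markers 4 were higher and 0 lower, with array means of 3.46 to 4.87 in sham EPO and 3.01 to 3.39 in sham none. Of 6 microglial markers 2 were higher and 2 lower, and of 4 astrocyte markers 3 were higher. The array means of the microglial markers lay between 6.72 and 7.05 in sham EPO and between 6.36 and 6.84 in sham none. Those of the astrocyte markers lay between 10.20 and 10.76 in sham EPO and between 9.35 and 9.70 in sham none. The leukocyte markers are dim, and their lowest sham EPO mean was 3.61. In sham none their means were 2.52 for S100a8, 2.58 for Ccr2, 3.08 for S100a9, 3.43 for Ptprc and 4.30 for Cd3e. The part of any of these cell types in the 8 rises was not tested.

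Neuron markers fell beside the channel genes. Of 7 measured, 6 were called lower and 0 higher in sham EPO, with a median difference of -0.67 against -0.30 for the channel genes, and Map2 was the 1 not called. Over the 74 channel genes with a mean of 5 or more the median difference was -0.48. The array means of the neuron markers lay between 9.59 and 10.02 in sham EPO and between 10.44 and 10.68 in sham none. Oligodendrocyte lineage markers gave 1 higher of 5, with array means of 8.04 to 8.43 in sham EPO and 7.89 to 8.15 in sham none, and choroid plexus and ependyma markers gave 1 higher of 4, with array means of 8.21 to 9.05 in sham EPO and 5.65 to 8.72 in sham none. The mean of the 102 channel genes lay between 6.10 and 6.42 on sham EPO arrays and between 6.45 and 6.66 on sham none arrays. Sham EPO replicates 3, 5 and 6 gave the lowest channel means of all arrays, and replicate 3 also had the lowest neuron marker mean. The part of neuron content in the falls was not tested.

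**Figure D3:**
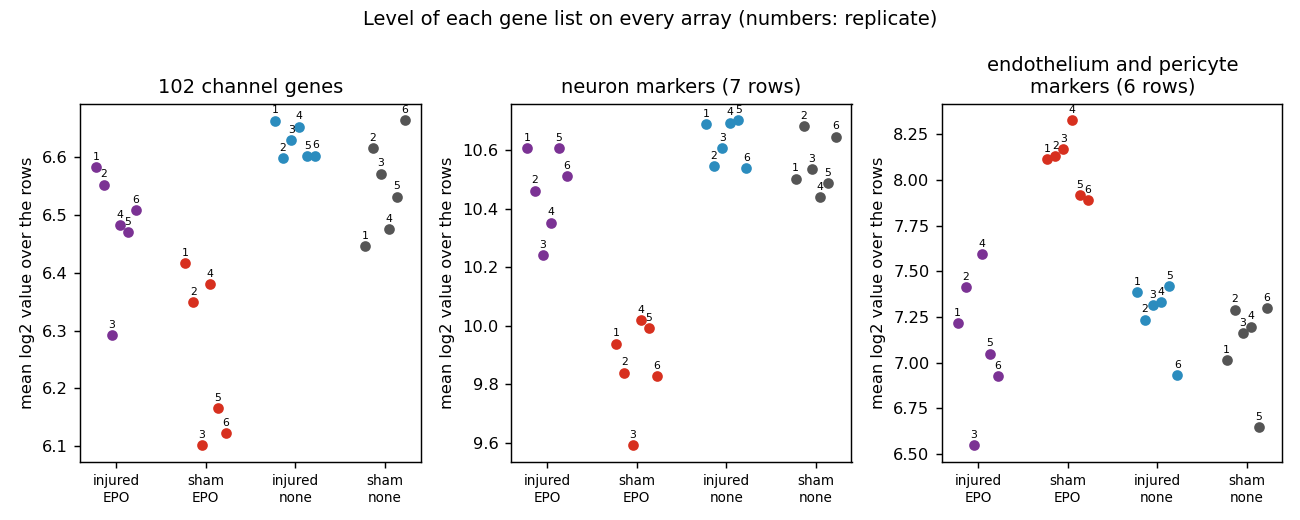
Mean log2 value on every array, with the replicate number, of the 102 channel genes (left), 7 neuron markers (middle) and 6 endothelium and pericyte markers (right), for injured EPO, sham EPO, injured none and sham none; vertical axes do not start at 0. Neuron markers on the 6 sham EPO arrays lie between 9.59 and 10.02, below every other array, and the endothelium and pericyte markers between 7.89 and 8.33, above every other array, while injured EPO replicate 3 has a channel mean of 6.29 within the sham EPO range.

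Genes that work with channels but lie outside the naming rule were read from a list of 27 partners and related channels, of which 20 had a single-symbol row. In sham EPO 13 were called lower and 1 higher, with a median difference of -0.48. Fgf13, a cytoplasmic factor that binds sodium channels, fell by 1.40 ± 0.13, and Cntnap1, which holds axonal membrane next to myelin loops, by 1.08 ± 0.24. The pacemaker channel gene Hcn2 fell by 0.71 ± 0.13 and the sodium leak channel gene Nalcn by 0.56 ± 0.13. Dpp6, the partner that sits with the A-type channel pore, fell by 0.62 ± 0.11, and Lgi1, a secreted protein of the Kv and AMPA receptor complexes, by 0.77 ± 0.17. The anchoring genes Ank2 and Ank3 were not called, with -0.20 ± 0.16 and -0.31 ± 0.15. Rest, the repressor that binds RE1 elements of neuronal genes, was the 1 called higher, by 0.83 ± 0.19 (adjusted p = 0.0026, limma).

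**Figure D4:**
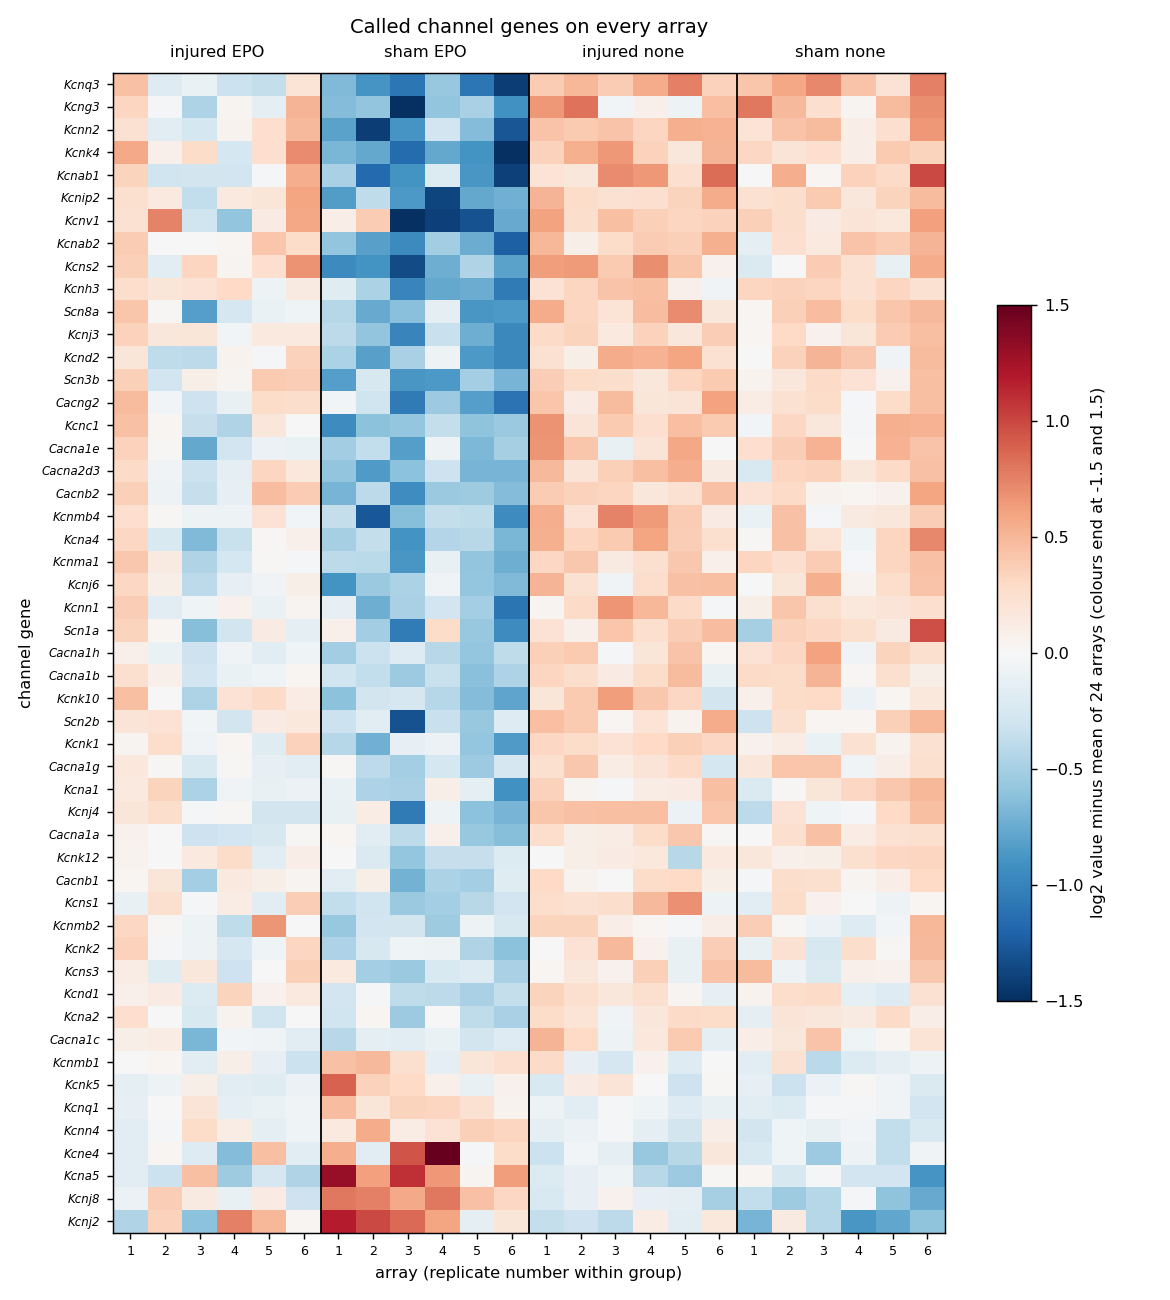
The 51 channel genes called between sham EPO and sham none (rows, in order of their difference) on every array (columns, grouped as injured EPO, sham EPO, injured none and sham none with replicate numbers), coloured by the log2 value minus the gene's mean over 24 arrays. The 43 lower and 8 higher genes were selected for the contrast between the sham EPO and sham none blocks; injured EPO replicate 3 is bluest of its group in many of the lower genes.

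Injured EPO arrays had higher levels of channel genes than sham EPO arrays. That comparison called 34 members, 30 higher and 4 lower, or 33.3% of members against 13.9% of all rows, where 6.05% were called higher and 7.83% lower. The member median was 0.20, beside -0.01 over all rows. The 6 injured EPO arrays lay entirely above or below the sham EPO arrays in 14 members, 13 above and 1 below, where 4.64% of all rows had such a gap. The comparison uses the same sham EPO arrays as the one before it, so opposite signs are built in where sham EPO stands apart, and only its own values are given. Centring moved the all-row median to 0.11 and the counts to 44 higher and 2 lower, or 45.1% of members against 19.3% of all rows. Within the arrays of title code 3D, 7 members were called, all higher, with a member median of 0.15. That was 6.86% of members against 1.88% of all rows, with injured EPO replicates 3, 4 and 5 and sham EPO replicates 3 and 4. The difference moved by over 1.5 times there in Kcnj6 (0.076), Kcnk1 (0.035), Cacna2d3 (0.41), Kcnab1 (0.36), Kcnk10 (0.35), Kcnn1 (0.35), Kcnn2 (0.60), Kcnq3 (0.57), Kcnn4 (-0.077) and Scn8a. With the title code as a fixed block Kcnj11, Kcnj6, Kcnn4 and Scn8a lost their calls, and with only the 2 groups in the fit Kcnj11, Kcnn4, Kcnq1, Kcnv1, Scn2b and Scn8a did. Kcng3, also described for this comparison, was not followed under the other settings here.

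Kcnk4 differed most between injured EPO and sham EPO, lying between 7.32 and 8.29 with a median of 7.84 in injured EPO and between 6.08 and 6.89 with a median of 6.75 in sham EPO. It was higher by 1.23 ± 0.14 (adjusted p = 2.65e-06, limma). Kcns2 was higher by 1.11 ± 0.16, lying between 6.24 and 7.06 in injured EPO and between 5.05 and 5.94 in sham EPO. Kcnab2 was higher by 0.99 ± 0.12, lying between 9.95 and 10.38 in injured EPO and between 8.73 and 9.44 in sham EPO. In these 3 genes the groups did not overlap, nor did they in Kcnn2 (0.99 ± 0.15), Kcnip2 (0.98 ± 0.14), Kcnq3 (0.90 ± 0.14), Kcng3 (0.86 ± 0.20), Kcnj3 (0.83 ± 0.11) and Cacnb2 (0.74 ± 0.13). Overlap remained for Kcnab1 (0.84 ± 0.20), Scn3b (0.83 ± 0.12) and Cacng2 (0.74 ± 0.16). Kcnj11, the pore of the neuronal ATP-sensitive channel, was higher by 0.53 ± 0.16, with 5.09 to 5.54 in injured EPO and 4.10 to 5.32 in sham EPO. The call of Kcnj11 was lost without sham EPO replicate 2, 3 or 6 or injured EPO replicate 4.

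Of the 7 sodium channel alpha subunits only Scn8a was called between injured EPO and sham EPO, at 0.48 ± 0.16 with an adjusted p of 0.0466 (limma), and the call was lost in 17 of the 24 fits that leave out 1 array. Among the 3D arrays its difference was -0.02. Injured EPO replicate 3 read 7.51 there while the other injured EPO arrays lay above 8. Of the 9 calcium channel alpha-1 subunits only Cacna1b was called, at 0.43 ± 0.10. Kcnv1 was called higher by 0.93 ± 0.28, a call lost without sham EPO replicate 3, 4 or 5 or injured EPO replicate 1, 2 or 6. Scn2b was called higher by 0.54 ± 0.17, a call lost without sham EPO replicate 3 or 5 or injured EPO replicate 1, 2, 5 or 6, and after quantile normalization. The 4 lower members were Kcna5 (-0.94 ± 0.19), Kcnj8 (-0.59 ± 0.13), Kcnq1 (-0.30 ± 0.08) and Kcnn4 (-0.28 ± 0.09). The call of Kcnn4 was lost without sham EPO replicate 2, 5 or 6 or injured EPO replicate 1, 2, 5 or 6, and that of Kcnq1 and Kcnn4 after centring or quantile normalization. Kcnj2 was not called (-0.51 ± 0.23). Neuron markers gave 6 higher of 7 in the same comparison, with array means of 10.24 to 10.61 in injured EPO and 9.59 to 10.02 in sham EPO, and endothelium and pericyte markers 4 lower of 6, with 6.55 to 7.60 in injured EPO and 7.89 to 8.33 in sham EPO. Leukocyte markers gave 4 lower of 5, with 3.05 to 3.58 in injured EPO and 3.46 to 4.87 in sham EPO. Astrocyte markers gave 1 lower of 4, and microglial markers 1 higher and 1 lower of 6. Of 5 oligodendrocyte lineage markers 1 was lower, and of 4 choroid plexus and ependyma markers 0 were called. The part of any of these cell types in the channel differences was not tested.

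The interaction asks whether the EPO difference among injured mice differs from that among sham mice. It called 14 members, 12 above 0 and 2 below, or 13.7% against 7.3% of all rows, with a member median of 0.16 beside -0.08 over all rows. Over all rows 1.55% were above 0 and 5.75% below. It keeps its value and sign when the titles are read the other way, but the EPO differences on which it rests do not. Under that reading the EPO difference of Kcnk4 among injured mice would be 1.23, labelled here as injured EPO against sham EPO. The largest interaction was that of Kcnk4, 1.07 ± 0.20 (adjusted p = 0.00172, limma). As labelled, EPO went with a difference in Kcnk4 of -0.15 ± 0.14 among injured mice and -1.23 ± 0.14 among sham mice. Kcnh3 had -0.07 ± 0.12 among injured mice and a fall by 1.00 ± 0.12 among sham mice, an interaction of 0.92 ± 0.17 with the smallest adjusted p of the members, 0.00114 (limma). Kcnq3 had -0.54 ± 0.14 among injured mice and -1.47 ± 0.14 among sham mice, an interaction of 0.93 ± 0.20. Kcnip2 (0.93 ± 0.19), Kcnab2 (0.90 ± 0.18), Kcnn2 (0.90 ± 0.22), Kcnj3 (0.79 ± 0.15) and Scn3b (0.74 ± 0.17) followed the same pattern of a fall with EPO called in sham mice alone, and here the difference itself passed the test. The 2 below 0 were Kcna5 (-0.995 ± 0.27) and Kcnj8 (-0.87 ± 0.18), where EPO went with 0.01 ± 0.19 and 0.19 ± 0.13 among injured mice and 1.01 ± 0.19 and 1.06 ± 0.13 among sham mice. No calcium channel pore was called in the interaction, and of the calcium channel genes Cacnb2 was (0.63 ± 0.18).

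Scaling changed the split of the interaction by more than 10 percentage points: 29 above and 1 below after centring, which moved the all-row median to 0.12, and 21 above and 0 below after quantile normalization, which moved it to 0.03. These were 29.4% and 20.6% of members against 9.36% and 9.08% of all rows. Kcna5 lost its call under both and Kcnj8 under quantile normalization. Cacnb2 lost its call in 10 of the 24 fits that leave out 1 array. Kcns2 (0.78 ± 0.22), named after its value was seen, lost it in 8 of them, and Kcng3 (1.00 ± 0.28) without sham none replicate 1, injured none replicate 3, 4 or 5 or injured EPO replicate 1 or 6. Kcnk12 (0.53 ± 0.15) lost it when injured EPO replicates 3 and 4 were left out together. With the title code as a fixed block 8 members were called, 7 above 0 and 1 below, and Kcnn2, Kcna5, Cacnb2, Kcng3, Kcns2 and Kcnk12 lost their calls. That was 7.84% of members against 3.88% of all rows. Within code 3D 0 members were called, where 56 of all rows were.

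**Figure D5:**
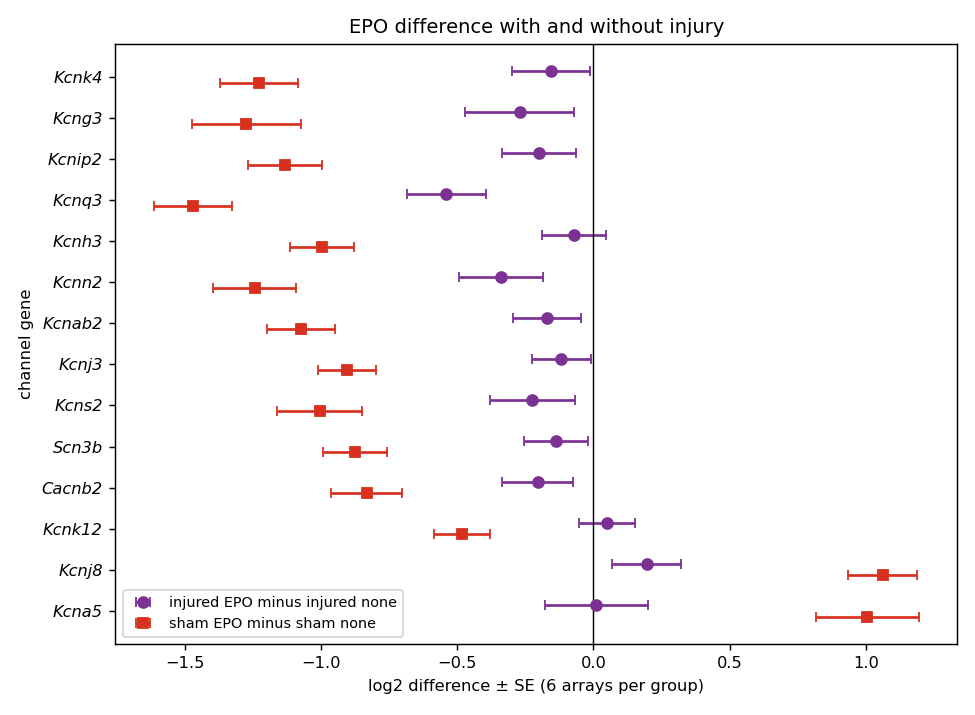
Difference between EPO and no EPO for the 14 channel genes called in the interaction (log2, horizontal axis, bars are SE, 6 arrays per group), among injured mice (circles, injured EPO minus injured none) and among sham mice (squares, sham EPO minus sham none). The 12 upper genes have squares between -1.47 and -0.48 and circles between -0.54 and 0.05, and Kcnj8 and Kcna5 have squares above 1 and circles under 0.20.

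The remaining comparisons called 0 members and 0 of all rows in limma, so 0% of either. Between injured none and sham none, 4 members had an unadjusted p under 0.05 beside 1803 of all rows, and the smallest adjusted p of a member was 0.637. These were Kcns1 (0.28 ± 0.11), Cacng5 (0.27 ± 0.12), Kcnj8 (0.28 ± 0.13) and Kcns2 (0.33 ± 0.16), each with overlapping arrays. The member median was 0.07, beside 0.08 over all rows. Between injured EPO and injured none, 23 members had an unadjusted p under 0.05 beside 1892 of all rows, with a member median of -0.17 beside -0.06. The 5 smallest p belonged to Kcna4 (-0.55 ± 0.14), Kcnq3 (-0.54 ± 0.14), Scn4b (-0.58 ± 0.16), Scn8a (-0.54 ± 0.16) and Cacna1h (-0.33 ± 0.10), each at an adjusted p of 0.539. Scn4b, a sodium channel beta subunit, lay between 3.34 and 4.28 in injured EPO and between 4.33 and 4.77 in injured none, without overlap. It is a dim member, and the share of all rows with such a gap was not counted there. Between injured EPO and sham none, 14 members had an unadjusted p under 0.05 beside 1374 of all rows, led by Kcnq3 (-0.57 ± 0.14) and Cacna1h (-0.38 ± 0.10) below and Kcnj8 (0.47 ± 0.13) above, with a smallest adjusted p of 0.658.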

How the data were processed

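Per the submitters' processing notes, the log2 expression values were made by the authors with RMA in Affymetrix Expression Console, and the table as deposited holds a value for each row and array. RMA subtracts background, equalises probe distributions and summarises probes per row. The sources used here give no version, summary level or annotation for it, and the table has no background per probe, so no row was called undetected. Rows were named from the platform annotation: 14939 of 23238 carry 1 symbol, 989 several and 7310 none here. The 102 members all matched GRCm38.p6 RefSeq genes by Entrez identifier, 0 under another symbol, and Kcnc1 alone had more than 1 row.

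The fit was made in limma (version 3.58.1, R 4.3.3), with a mean for every group and all 24 arrays entering each row's variance, which leaves 20 residual degrees of freedom (23.3 after empirical Bayes moderation). No filter on level was used. In all, 6 contrasts were tested two-sided, with Benjamini-Hochberg adjustment over 23238 rows in each. Replicates were numbered in accession order and pair no samples. No array pair was identical. The titles carry a letter code with 7 values of unstated meaning. Alternatives entered it as a fixed or random block, or kept only the 11 arrays of code 3D. The fit was tested on simulated data.

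The members, subunit classes, partner and marker lists, and alternatives were chosen with earlier results of these data known. The text names, per comparison and class, up to 3 members called in each direction ranked by size of difference, the 5 members of smallest p in comparisons with under 5 calls, a fixed set of well-studied channel genes, and the members with the highest and lowest mean. Genes outside this rule are said to be. Channel genes of the fixed set without a single-symbol row were not analysed here.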

Additional observations from a re-analysis of the deposited data

Results flagged for a closer look

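Single arrays stood away from their group in 15 of 244 gene and group sets (61 named genes in 4 groups), by a gap to the nearest array that, as a share of the group's range, passed Dixon's critical value. Chance gives about 1 in 20 such gaps per set. Injured EPO replicate 3 was the array in 4 of them: lowest in Cacna1c at 7.08, in Cacna1d at 6.11 and in Cacnb1 at 8.15, and highest in Kcna5 at 5.66. Sham EPO replicate 3 was lowest in Kcng3 at 4.51 and Scn2b at 8.50 and highest in Scn7a at 3.68. Other sham EPO arrays were replicate 2, highest in Scn4b at 4.53, replicate 4, highest in Cacng5 at 8.19, and replicate 5, lowest in Scn3a at 6.06. Injured EPO replicate 4 was highest in Kcna3 at 8.38. Among injured none arrays, replicate 5 was lowest in Kcnj4 at 7.39 and in Kcnk12 at 6.81, and replicate 3 was lowest in Kcna2 at 8.28. Sham none replicate 6 was lowest in Kcna5 at 4.32.

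The EPO difference among injured mice differed from that among sham mice in 14 members, by limma's interaction term with adjustment over all rows. The values were 1.07 for Kcnk4, 1.00 for Kcng3, 0.93 for Kcnip2, 0.93 for Kcnq3, 0.92 for Kcnh3, 0.90 for Kcnn2, 0.90 for Kcnab2, 0.79 for Kcnj3, 0.78 for Kcns2, 0.74 for Scn3b, 0.63 for Cacnb2, 0.53 for Kcnk12, -0.87 for Kcnj8 and -0.995 for Kcna5.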

How the results depend on the processing

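Member counts under the other settings tried stayed within 1.5 times of those reported, with these exceptions. With the titles read the other way, sham EPO against sham none called 0 members, injured EPO against sham EPO 0, injured none against sham none 51 and injured EPO against injured none 34, which follows from exchanging the labels. Within code 3D, with 11 arrays in the fit, the counts were 14 for sham EPO against sham none, 7 for injured EPO against sham EPO and 0 for the interaction. Of all rows, 3.71%, 1.88% and 0.241% were called there. The interaction called 30 members after centring, 8 with the title code as a fixed block and 8 at an adjusted p of 0.01. The cause of the first 2 was not tested. Of all rows, 9.36%, 3.88% and 3.21% were called under these 3 settings. Leaving out each array in turn gave 44 to 52 members for sham EPO against sham none, 30 to 40 for injured EPO against sham EPO, 11 to 19 for the interaction, and 0 to 0 for each of the other 3 comparisons. With injured EPO replicates 3 and 4 left out together, a choice made after seeing the data, 53 members were called for sham EPO against sham none and 20 for the interaction. Of all rows, 22.6% and 9.46% were called then. Sham EPO replicate 3 and sham none replicate 6 each gave 44 when left out. As a random block the title code had an estimated correlation of 0.0048. It changed no call of a named gene in the comparisons where that gene was followed. No paired analysis was possible because the replicate numbers follow accession order and mark no shared source. Depth is not a property of these arrays, and signal over background is unknown, which limits the dim members most.

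Named differences that changed sign and were called under either setting did so under the other reading of the titles, apart from Scn8a in injured EPO against sham EPO at -0.017 within code 3D; among named members called under neither, and with the titles as labelled, sham EPO against sham none changed sign in Kcnj10 within code 3D (0.18), in Kcnu1 there (-0.042) and after centring (-0.12), and in Scn7a after centring (-0.00031). For sham EPO against sham none they became Cacna1c 0.049, Cacna2d3 0.14, Cacnb1 0.016, Cacnb2 0.11, Cacng2 0.11, Kcna2 0.072, Kcnab1 0.10, Kcnab2 0.091, Kcnc1 0.15, Kcnd2 0.088, Kcnip2 0.048, Kcnj3 0.041, Kcnj4 0.26, Kcnj6 0.065, Kcnk1 0.20, Kcnk10 0.15, Kcnk2 0.067, Kcnk4 0.16, Kcnmb4 0.28, Kcnn2 0.084, Kcnv1 0.11, Scn1a 0.047, Scn2b 0.14, Scn3b 0.090 and Scn8a 0.070. For injured EPO against sham EPO they became Cacna1b -0.24, Cacna2d3 -0.32, Cacnb2 -0.21, Cacng2 -0.24, Kcna5 0.010, Kcnab1 -0.47, Kcnab2 -0.17, Kcnip2 -0.20, Kcnj11 -0.16, Kcnj3 -0.12, Kcnj6 -0.32, Kcnj8 0.19, Kcnk1 -0.22, Kcnk10 -0.17, Kcnk4 -0.15, Kcnmb4 -0.39, Kcnn1 -0.27, Kcnn2 -0.34, Kcnn4 0.098, Kcnq1 0.064, Kcnq3 -0.54, Kcns2 -0.22, Kcnv1 -0.26, Scn2b -0.22, Scn3b -0.14 and Scn8a -0.54. For injured none against sham none they became Kcns1 -0.43 and Kcns2 -1.005, and for injured EPO against injured none Kcnq3 0.90 and Scn8a 0.48. Differences that were not followed under the other settings are not listed.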
